A study of Mus musculus with 6 samples.

Results

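The genes described here are 39 interferon-stimulated genes, measured in mouse colon tumours. They were chosen by name, as all probe sets whose single gene symbol in the platform annotation is one of the 39. Such a set combines the array's short probes for 1 transcript. Of the 39 genes, 36 had such probe sets, 52 in all, and 33 passed the filter on dim signal, out of 10289 genes that passed it. Of the other 6 genes, Stat2, Oas3 and Mx2 did not exceed 3.88, 2.60 and 2.57 on any array, below the filter level of 4. Isg15 and Tgtp1 occur in the annotation used here only on probe sets shared with other genes, and Ifi44 has no entry there. The expression of these 3 was therefore not analysed here, while their promoters were part of the search below. Each gene is described by its brightest probe set, on the log2 scale, where 1 unit is a 2-fold difference.

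Colon tumours from 3 human IL8 transgenic mice were set against colon tumours from 3 wild type control mice, 1 sample per array. Both groups had the CBA/C57BL/6 background and specific pathogen-free housing, and all animals are recorded as male. IL8 is a human chemokine that attracts neutrophils. The sources used here do not give the promoter of the transgene, the age of the mice, the origin of the tumours or whether an array holds 1 tumour or several. The p-values therefore cover the spread between these 6 samples, part of which may be technical. Xist, expressed from the inactive X chromosome of female cells, was at 12.27 to 12.89 on the transgenic arrays and at 2.33 to 2.64 on the control arrays. The Y-linked gene Eif2s3y was at 2.39 to 2.71 on the transgenic and at 9.99 to 10.22 on the control arrays. This goes against the recorded sex for the arrays labelled transgenic, and sex and genotype cannot be told apart in any comparison below. All 10 markers of colon epithelium were measured, with a mean level of 11.40 to 11.98 on transgenic and 11.24 to 12.02 on control arrays. Transgenic array 2 stood apart: 8 markers of squamous epithelium averaged 10.61 there, 3.88 and 4.22 on the other transgenic arrays and 3.49 to 4.16 on control arrays.

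Interferons are secreted proteins that signal infection and inflammation to neighbouring cells. Type I and type III interferons activate a transcription factor complex that contains IRF9 and binds the interferon-stimulated response element in promoters. Type II interferon, or interferon-gamma, is made mainly by T cells and natural killer cells and acts on promoters that hold a gamma-activated site. The genes switched on include sensors of foreign nucleic acid, proteins that block viral translation or entry, GTPases that attack intracellular pathogens, and the regulators that sustain or end the response.

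The promoters of the genes were searched for both elements. RefSeq promoter windows of the GRCm38.p6 assembly were used for 30 of the 39 genes. The windows were 300 bases long, with 250 before and 50 after the start of transcription. The core of the response element was searched as GAAA, any 2 bases and GAAA again, on either strand (TTTC, any 2 bases and TTTC on the other). It occurred in 19 of the 30 (63.3%), against 3.99% of all 27025 genes with a window. The gamma-activated motif TTCNNNGAA, which reads the same on both strands, occurred in 9 (30.0%) against 9.55%. Of the 30, 5 genes had both, and 7 had neither in this window. For 6 genes the 150 bases before the start are given here 5′ to 3′ on the gene's strand, with both motifs in capitals, because their values differ in pattern. Ifit1, Ddx60 and Bst2 were low on 1 transgenic array, Gbp2 on another, Igtp on both, and Irf1 was one of the genes whose groups did not overlap. Gbp2 and Igtp were also low on control array 1, at 8.80 and 8.71. Gbp2 was at 8.22 on transgenic array 1, and Igtp at 8.62 and 8.50 on transgenic arrays 1 and 2.
Ifit1 (chr19:34640739-34640888, plus strand): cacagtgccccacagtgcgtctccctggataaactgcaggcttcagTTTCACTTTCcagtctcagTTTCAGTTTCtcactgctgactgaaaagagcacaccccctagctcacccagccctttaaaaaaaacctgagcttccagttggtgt
Ddx60 (chr8:61927937-61928086, plus strand): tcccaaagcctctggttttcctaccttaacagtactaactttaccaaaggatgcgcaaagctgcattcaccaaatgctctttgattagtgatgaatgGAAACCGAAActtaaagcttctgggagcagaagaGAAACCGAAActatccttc
Bst2 (chr8:71537473-71537622, minus strand): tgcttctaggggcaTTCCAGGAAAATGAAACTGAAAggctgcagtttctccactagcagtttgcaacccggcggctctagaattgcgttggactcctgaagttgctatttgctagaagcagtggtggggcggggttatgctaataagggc
Gbp2 (chr3:142620513-142620662, plus strand): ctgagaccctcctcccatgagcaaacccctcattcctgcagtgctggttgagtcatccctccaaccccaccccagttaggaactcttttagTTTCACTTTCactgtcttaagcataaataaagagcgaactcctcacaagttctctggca
Igtp (chr11:58199406-58199555, plus strand): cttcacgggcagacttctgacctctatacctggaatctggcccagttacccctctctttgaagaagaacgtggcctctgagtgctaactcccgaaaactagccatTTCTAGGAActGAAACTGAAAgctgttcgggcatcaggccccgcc
Irf1 (chr11:53769864-53770013, plus strand): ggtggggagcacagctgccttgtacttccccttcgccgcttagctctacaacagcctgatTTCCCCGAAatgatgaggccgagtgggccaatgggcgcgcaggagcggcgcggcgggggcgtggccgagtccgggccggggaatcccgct
Ifit1, Ddx60 and Gbp2 carry the response element alone in this stretch, Irf1 the gamma-activated motif alone, and Igtp has the 2 motifs side by side. In Bst2 the gamma-activated motif overlaps the first of its 2 response elements, which also overlap each other. All 6 printed stretches hold a motif, but other genes with such patterns differ. Ifitm1, low on transgenic array 2, and the GTPase gene Ifi47 had neither motif in their windows. Ifit2, also low on transgenic array 2, had the gamma-activated motif alone. A match describes the letters only, not binding.

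Across the 33 measured genes most differences lay below 0, but no gene passed the test. The difference, transgenic minus control, was below 0 for 25 of 33 genes, against 53.8% of all genes tested, and above 0 for 8. Its median was -0.41, against -0.025 over all genes. With limma and Benjamini-Hochberg adjustment over 19310 probe sets, 0 of 33 genes had an adjusted p under 0.05, against 0.0486% of genes (0.0570% of probe sets), and their adjusted p ran from 0.806 to 0.989. One gene, Ifitm1, had an unadjusted p under 0.05, where 5.82% of all genes did. Groups did not overlap for 2 genes, Irf1 and Ifitm1, both lower (background 6.75% lower), and for 0 that were higher (background 4.77%). Differences of -1 or lower were found for 4 genes, Usp18, Iigp1, Igtp and Ifitm1, against 3.14% of all genes.

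The members varied among themselves and between arrays of 1 group. The median SD of a measured member was 0.751 among transgenic and 0.460 among control arrays, against 0.301 and 0.190 over all genes. A range of 1 unit or more was seen in 23 of 33 genes among transgenic arrays (24.7% of all genes) and in 11 among control arrays (8.45%). Transgenic array 2 was the lowest of the 6 arrays for 23 of 33 genes (27.6% of all genes), transgenic array 1 for 7 (26.9%) and control array 3 for the other 3 (14.4%). Transgenic array 3 and control arrays 1 and 2 were lowest for 0, against 7.53%, 10.9% and 12.7% of all genes. The genes' median deviation from the control mean was -0.33, -1.02 and 0.034 on transgenic arrays 1 to 3, and -0.34, 0.45 and -0.075 on control arrays 1 to 3. Without transgenic array 2 the median difference was -0.085 and 17 of 33 genes were lower, and without transgenic array 1 they were -0.28 and 23. Without control array 2 they were -0.18 and 19.

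**Figure D1:**
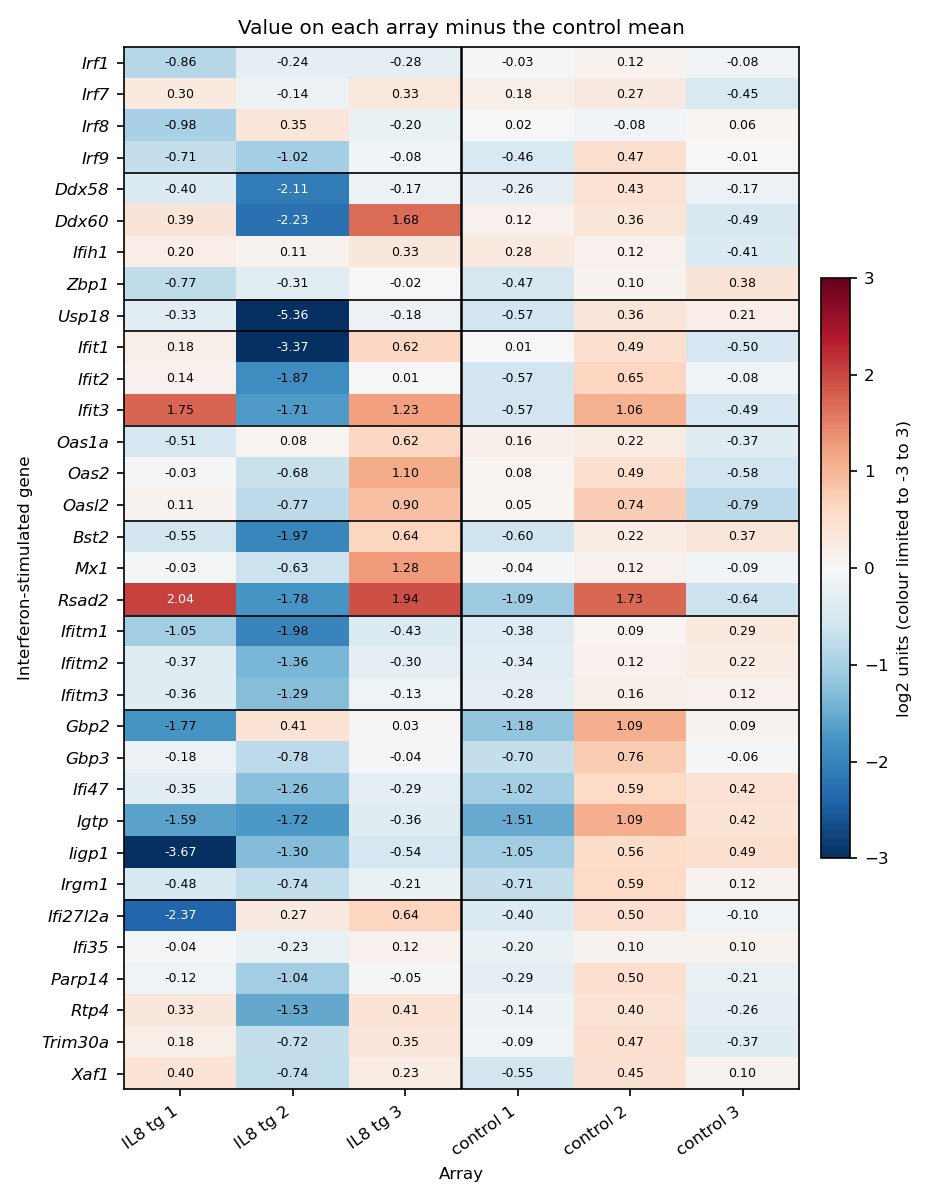
Deviation of each measured interferon-stimulated gene from its control mean, in log2 units, on 3 IL8 transgenic (tg) and 3 control arrays, with genes ordered by role and the value printed in each cell. Array 2 of the transgenic group is blue for most genes, down to -5.36 for Usp18, and array 1 is lowest for a smaller set led by Iigp1 at -3.67.

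On transgenic array 2, 11 genes lay at least 1 unit below all 3 control arrays, against 5.81% of all genes. They were Ddx58, Ddx60, Usp18, Ifit1, Ifit2, Ifit3, Bst2, Ifitm1, Ifitm2, Ifitm3 and Rtp4. On transgenic array 1 there were 2, Iigp1 and Ifi27l2a (3.31% of all genes), and on transgenic array 3 there were 0 (0.165%). On the higher side, Ddx60 and Mx1 lay at least 1 unit above all controls on transgenic array 3 (0.593% of all genes), and no gene did so on array 1 (1.92%) or array 2 (3.41%). Of the 11 genes low on array 2, 9 had a promoter window used here, and 7 of these 9 had the response element. Among the other measured genes with a window used here it was 8 of 16. The promoter of Iigp1 was not searched, so Iigp1 is in none of the promoter counts of its group. These sets were formed from the values, so the counts are a description. Array 2 is also the array with the high squamous markers given above. Array 1 had the lowest mean of 6 fibroblast markers, at 8.88 against 10.03 or more on every other array. Lum, Col1a1, Col1a2 and Col3a1 were lowest on transgenic array 1, Pdgfra on transgenic array 2 and Dcn on transgenic array 3. The part of squamous or fibroblast markers in these results was not tested.

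Usp18 and the IFIT genes were low on transgenic array 2. Usp18 removes the ubiquitin-like modifier ISG15 from proteins and blocks signalling at the type I interferon receptor. It was at 9.30, 4.26 and 9.45 on transgenic arrays 1 to 3, and at 9.06, 9.99 and 9.84 on control arrays 1 to 3. Array 2 alone was low, and the other transgenic arrays lay within the control range. The difference was -1.96 ± 1.38 (SE; limma adjusted p 0.806, n = 3 per group), and -0.25 without transgenic array 2.

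The IFIT proteins bind viral RNA and block its translation. Ifit2 was at 9.65, 7.64 and 9.52 on the transgenic arrays and 8.94, 10.15 and 9.43 on the control arrays, a difference of -0.57 ± 0.60 (SE; limma adjusted p 0.845). Ifit1 was at 8.41, 4.86 and 8.85 on the transgenic arrays, against 8.23, 8.72 and 7.73 among controls. Both were low on transgenic array 2 and within or next to the control range on the others. Ifit3 was at 9.39, 5.93 and 8.87 among transgenic arrays and at 7.07, 8.70 and 7.14 among control arrays. Its transgenic arrays thus lay on both sides of all controls, and its difference of 0.42 became 1.49 without transgenic array 2 and -0.24 without transgenic array 1. Without transgenic array 2 the differences of Ifit1 and Ifit2 were 0.40 and 0.077.

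The 3 IFITM genes, which encode membrane proteins that hinder entry of enveloped viruses, had differences of -1.15 to -0.59, and 0 of 3 passed with limma. Ifitm1 was at 11.42, 10.49 and 12.04 on the transgenic arrays and 12.08, 12.55 and 12.76 on the control arrays. All 3 transgenic arrays lay below all controls, although the gap between array 3 and control array 1 was small. The difference was -1.15 ± 0.41 (SE; limma adjusted p 0.806), and it ran from -1.51 to -0.74 when an array was left out. Ifitm3 was at 12.99, 12.06 and 13.21 on the transgenic arrays, against 13.07, 13.51 and 13.46 among controls, a difference of -0.59 ± 0.33. Ifitm2 was at 11.13, 10.14 and 11.20 on the transgenic arrays, against 11.16, 11.62 and 11.72 among controls, a difference of -0.68 ± 0.33. For Ifitm2 and Ifitm3 only transgenic array 3 reached into the control range, and without transgenic array 2 the differences were -0.34 and -0.24.

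Among the nucleic acid sensors, Ddx58 and Ddx60 were low on transgenic array 2 and Ifih1 was not. Ddx58 encodes RIG-I, a sensor of viral RNA ends. It was at 6.16, 4.45 and 6.39 on the transgenic arrays and 6.30, 6.99 and 6.39 on the control arrays, a difference of -0.89 ± 0.53 (SE; limma adjusted p 0.806) that was -0.29 without transgenic array 2. Ifih1, which encodes MDA5, a sensor of long double-stranded RNA, was at 10.20, 10.11 and 10.33 among transgenic arrays and at 10.28, 10.12 and 9.59 among control arrays. The groups overlapped, and the difference was 0.21 ± 0.22 (limma adjusted p 0.836). Ddx60, an RNA helicase, spanned the widest range of the 4 in the transgenic group, at 5.14, 2.51 and 6.43 on the transgenic arrays, against 4.87, 5.11 and 4.26 among controls. Zbp1, a sensor of Z-form nucleic acid that can trigger cell death, differed by -0.37 at its brightest probe set and by -1.29 at the other.

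**Figure D2:**
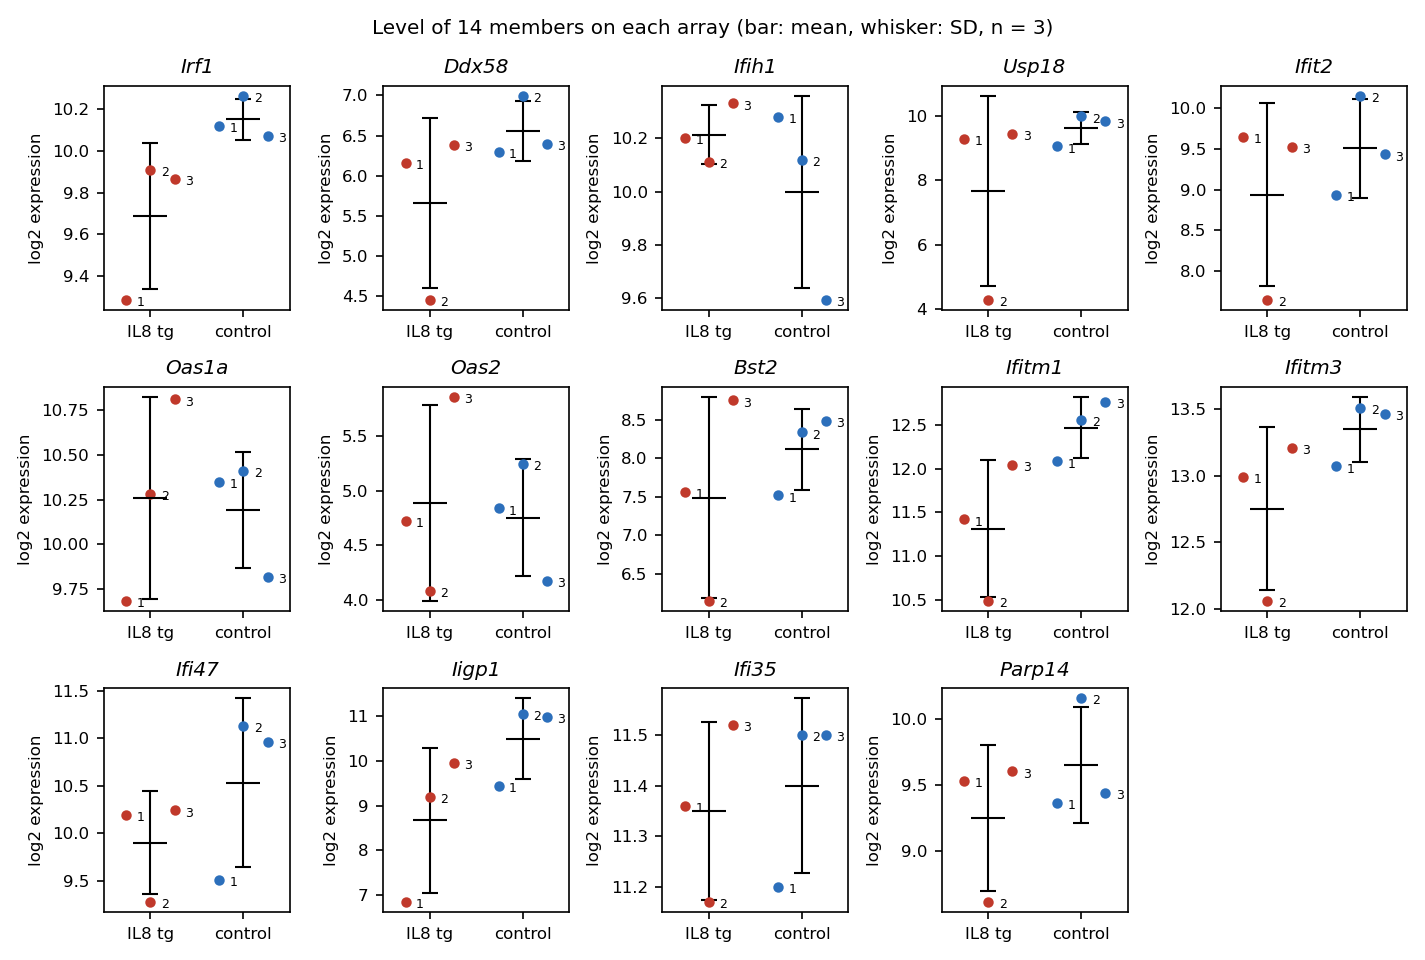
Log2 expression of 14 interferon-stimulated genes on IL8 transgenic (tg, red) and control (blue) arrays. Points are arrays numbered as in the text, bars are means and whiskers SD (n = 3 per group), and each panel has its own axis that does not start at 0. Usp18, Ifit2, Ddx58, Bst2, Ifitm1 and Ifitm3 have transgenic array 2 below the rest, while Irf1 and Iigp1 have array 1 lowest.

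Bst2, Mx1 and Rsad2 followed array 2 too, with array 3 of the transgenic group at or near the top. Bst2 encodes tetherin, which holds budding virus at the cell surface. It was at 7.57, 6.15 and 8.75 on the transgenic arrays and 7.52, 8.34 and 8.49 on the control arrays. The transgenic arrays spanned more than the control range, and the difference of -0.63 ± 0.66 (SE; limma adjusted p 0.845) was 0.045 without transgenic array 2. Rsad2, which encodes viperin, an inhibitor of viral RNA synthesis, was at 7.96, 4.14 and 7.85 among transgenic arrays and at 4.82, 7.65 and 5.27 among control arrays. Its difference was 0.73, the highest of the 33 genes, and it was 0.079 if transgenic array 1 was left out and 1.99 if array 2 was. Mx1, a dynamin-like GTPase, was at 4.57, 3.96 and 5.88 on the transgenic arrays, against 4.56, 4.72 and 4.51 among controls.

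The OAS genes, whose products make the second messenger that activates RNase L, differed by 0.063 to 0.13, small against their spread. Oas1a was at 9.68, 10.28 and 10.81 among transgenic arrays and at 10.35, 10.41 and 9.82 among control arrays, so that the transgenic arrays spanned the control range (difference 0.063 ± 0.33, SE; limma adjusted p 0.971). Oas2 was at 4.72, 4.08 and 5.86 on the transgenic arrays, against 4.84, 5.25 and 4.18 among controls, a difference of 0.13 ± 0.50 (limma adjusted p 0.959). Oasl2 was at 6.18, 5.29 and 6.96 on the transgenic arrays, against 6.11, 6.80 and 5.27 among controls. For all 3 genes transgenic array 3 was the highest of the 6 arrays, and without it their differences were -0.21, -0.35 and -0.33.

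**Figure D3:**
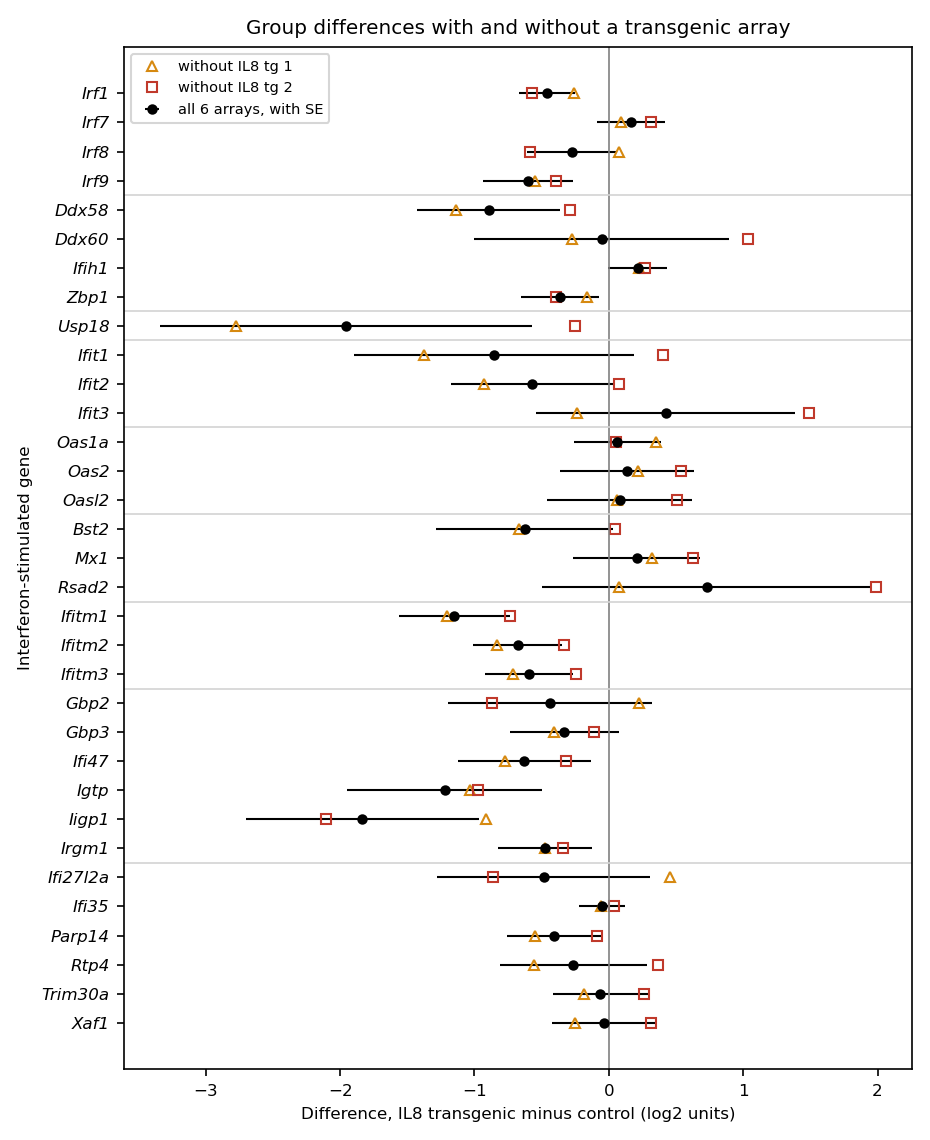
Difference between group means (IL8 transgenic minus control, log2 units) for the 33 measured genes, with the SE of the fit from all 6 arrays, and the same difference without transgenic (tg) array 1 or array 2. Usp18 lies at -1.96 with all arrays and at -0.25 without array 2, and Iigp1 at -1.83 and -0.92 without array 1.

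A few genes were lower on transgenic array 1 than on array 2. The gap was at least 1 unit for 4 of 33 genes, Iigp1, Gbp2, Ifi27l2a and Irf8, a share near the 9.14% of all genes, and in the other direction for 10 of 33, against 9.52% of all genes. Ifi27l2a, a small interferon-induced membrane protein, was at 5.64, 8.28 and 8.65 among transgenic arrays and at 7.61, 8.51 and 7.91 among control arrays, and its difference of -0.49 was 0.46 without transgenic array 1. Irf8, a transcription factor of myeloid cells, was at 7.96, 9.29 and 8.73 on the transgenic arrays, against 8.95, 8.86 and 8.99 among controls. Array 2 lay above all controls and array 1 below them, and without transgenic array 1 the difference of -0.28 was 0.075. The second probe set of Irf8 was likewise lowest on array 1, at 5.27. These 4 genes were picked out after their values were seen.

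**Figure D4:**
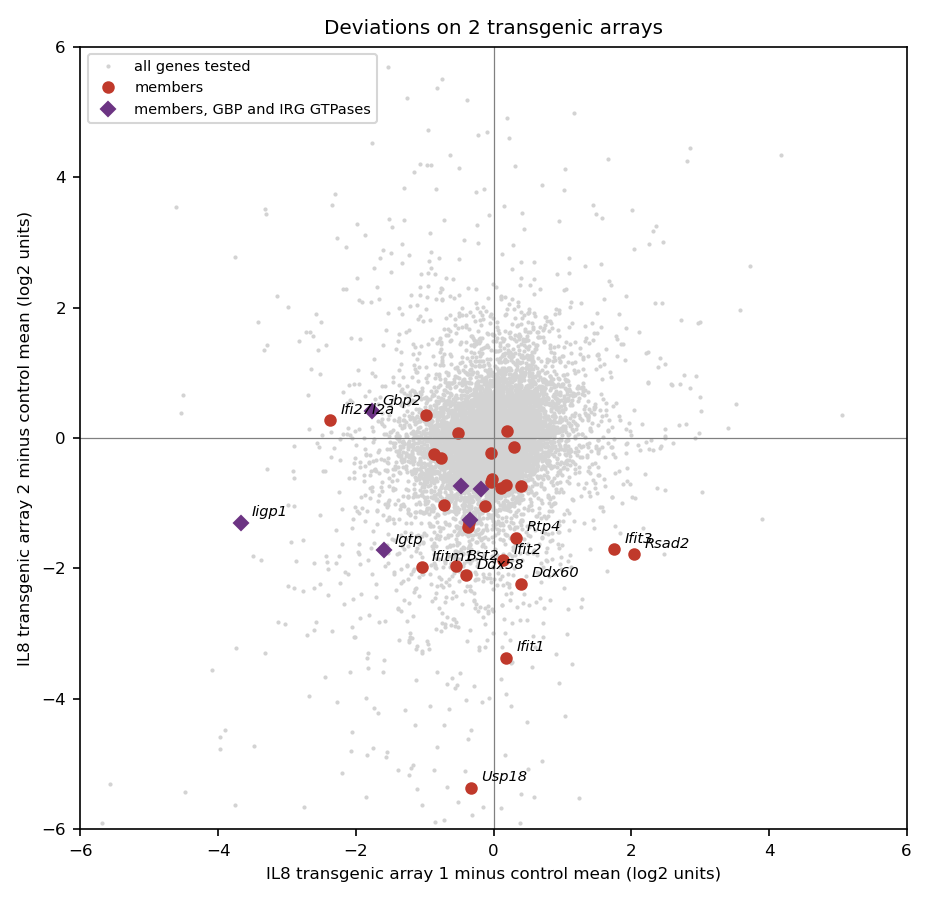
Deviation from the control mean on IL8 transgenic array 1 (horizontal) and array 2 (vertical), in log2 units, for all genes tested (grey), the measured interferon-stimulated genes (red) and the GBP and IRG GTPases among them (purple). Both axes subtract the same control mean and are limited to 6 units either way. Usp18, Ifit1 and Ddx60 lie low on array 2 only, Ifi27l2a and Gbp2 on array 1 only, and Iigp1 and Igtp on both. On control array 1, which is not drawn, Gbp2, Iigp1 and Igtp deviated by -1.18, -1.05 and -1.51.

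The GBP and IRG genes encode GTPases that assemble on the vacuoles of intracellular pathogens and are strongly induced by interferon-gamma. With all arrays the 6 measured members had differences below 0, from -1.83 to -0.33, and 0 passed with limma, with 0 at an unadjusted p under 0.05. Iigp1 was at 6.83, 9.20 and 9.97 on the transgenic arrays and 9.45, 11.06 and 10.99 on the control arrays. Control array 1 fell between transgenic arrays 2 and 3, so the groups overlapped. The difference was -1.83 ± 0.87 (SE; limma adjusted p 0.806), -2.20 at its other probe set, and -0.92 without transgenic array 1. Ifi47 was at 10.19, 9.27 and 10.24 on the transgenic arrays, against 9.51, 11.13 and 10.96 among controls, a difference of -0.63 ± 0.50 (limma adjusted p 0.810). Igtp was at 8.62, 8.50 and 9.86 on the transgenic arrays, against 8.71, 11.31 and 10.63 among controls, a difference of -1.22 that was -0.68 without control array 2 and -1.98 without control array 1. Gbp2 was at 8.22, 10.40 and 10.02 on the transgenic arrays, against 8.80, 11.07 and 10.08 among controls. Its difference of -0.44 was 0.22 without transgenic array 1 and 0.10 without control array 2. Gbp3 and Irgm1 differed by -0.33 and -0.47, and Gbp3 by 0.050 without control array 2. For all 6 genes control array 1 was the lowest of the controls. The group's median deviation was -1.04, -1.02 and -0.25 on transgenic arrays 1 to 3, and -1.04, 0.68 and 0.27 on control arrays 1 to 3, so that control array 1 lay as low as transgenic arrays 1 and 2.

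Of the 4 measured transcription factors, 3 had differences below 0. Irf1, which interferon-gamma induces and which drives GBP and antigen presentation genes, was at 9.29, 9.91 and 9.87 on the transgenic arrays and 10.12, 10.26 and 10.07 on the control arrays. All transgenic arrays lay below all controls, with array 1 the lowest. The difference was -0.46 ± 0.21 (SE; limma adjusted p 0.806), and -0.26 without transgenic array 1. Irf9, the DNA-binding subunit of the type I complex, was at 7.57, 7.26 and 8.21 on the transgenic arrays, against 7.82, 8.76 and 8.27 among controls, a difference of -0.60. Irf7, which amplifies type I interferon production, was at 5.02, 4.57 and 5.05 on the transgenic arrays, against 4.90, 4.99 and 4.27 among controls, a difference of 0.16.

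The remaining 6 genes had differences below 0 with all arrays, and 5 of these signs turned when 1 array was left out. Without transgenic array 2 the difference was 0.37 for Rtp4, 0.32 for Xaf1, 0.27 for Trim30a and 0.041 for Ifi35, and without transgenic array 1 it was 0.46 for Ifi27l2a. Parp14, an ADP-ribosyltransferase, was at 9.53, 8.61 and 9.60 among transgenic arrays and at 9.36, 10.16 and 9.44 among control arrays (difference -0.41 ± 0.35, SE; limma adjusted p 0.825). Without transgenic array 2 its difference was -0.085. Ifi35, a cytoplasmic regulator of the response, was at 11.36, 11.17 and 11.52 on the transgenic arrays, against 11.20, 11.50 and 11.50 among controls. Its difference of -0.049 ± 0.17 was within the spread of both groups. These values are from its brightest probe set, and its other kept probe sets were dimmer, at 7.76 to 8.50 and 8.22 to 8.78. Rtp4, a chaperone of G protein-coupled receptors, was at 9.96, 8.11 and 10.04 on the transgenic arrays, against 9.49, 10.03 and 9.37 among controls. Trim30a, a ubiquitin ligase family member, and Xaf1, a pro-apoptotic protein, differed by -0.063 and -0.036. For all of these but Ifi27l2a, transgenic array 2 was the lowest of the 6 arrays. Of the 33 genes, 10 had several kept probe sets, and in all 10 these had the same sign of difference.

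The upstream part of the pathway was described from a list of 52 other genes for interferons, receptors, signalling proteins and other targets, of which 46 had a probe set and 36 were measured. Their median difference was -0.14, with 27 below 0 (53.8% of all genes) and 9 above. With limma 0 passed (0.0486% of all genes), and 1 had an unadjusted p under 0.05 (5.82% of all genes). The interferon genes Ifna1, Ifna2, Ifna4, Ifnb1 and Ifng did not exceed 2.12, 2.18, 2.05, 2.24 and 2.69 on any array, below the filter level. Ifnar2, a subunit of the type I receptor, was at 7.99, 6.98 and 8.07 on the transgenic arrays and 8.07, 8.56 and 8.71 on the control arrays (difference -0.77 ± 0.34, SE; limma adjusted p 0.806). Ptpn6, a phosphatase that dampens JAK signalling, was at 8.52, 6.92 and 7.99 on the transgenic arrays, against 8.57, 8.48 and 9.28 among controls (difference -0.97 ± 0.45). Both genes had transgenic array 2 lowest.

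Groups did not overlap for 4 of the 36 pathway genes, 2 lower and 2 higher, near the background of 6.75% lower and 4.77% higher over all genes. None of the 4 passed with limma (adjusted p 0.806 for each). Irf5, a factor of myeloid cells, was at 3.68, 3.63 and 4.19 among transgenic arrays and at 4.26, 4.75 and 4.40 among control arrays, near the filter level, with a difference of -0.64. Jak1, a kinase of all interferon receptors, was at 9.49, 9.35 and 9.35 on the transgenic arrays, against 9.57, 9.60 and 9.68 among controls, a difference of -0.22. Irf2, which competes with Irf1 for its sites, was at 7.99, 8.99 and 8.03 on the transgenic arrays, against 7.74, 7.81 and 7.64 among controls, a difference of 0.61 ± 0.29 (SE). Tlr3, a sensor of double-stranded RNA in endosomes, was at 8.17, 7.97 and 7.94 on the transgenic arrays, against 7.87, 7.59 and 7.81 among controls, a difference of 0.27. For Irf5 and Jak1 all transgenic arrays lay below all controls, and for Irf2 and Tlr3 above.

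Markers of immune cells also varied between arrays, and their part in the differences of the interferon-stimulated genes was not tested. In tissue samples fewer cells of a type and less RNA per cell cannot be told apart. The mean level of 10 macrophage markers was 7.15 to 8.51 on transgenic and 8.595 to 9.16 on control arrays, lowest on transgenic array 2. Differences were below 0 for 9 of the 10 and above 0 for Cd14. Cd14 was at 11.43, 10.40 and 10.14 on the transgenic arrays, against 10.39, 10.39 and 10.22 among controls. The mean of 8 dendritic cell and MHC class II markers was 4.99 to 6.29 on transgenic and 6.38 to 6.80 on control arrays, lowest on transgenic array 1, and Flt3, Batf3 and Xcr1 among them were under 4 on every array. Of 10 T and natural killer cell markers, 7 were under 4 on every array, and their mean was 2.64 to 3.03 on transgenic and 3.02 to 3.26 on control arrays. Of 6 plasmacytoid dendritic cell markers, Siglech, Ccr9 and Cox6a2 were under 4 on every array. The mean of the 6 was 6.58 to 7.38 on transgenic and 6.98 to 7.32 on control arrays. It was carried by Tcf4, Ly6d and Klk1, at 9.168 or more on every array, so it does not describe the dim markers. The mean of 7 neutrophil markers was 5.55 to 6.45 on transgenic and 5.29 to 5.69 on control arrays, with Cxcr2, Mmp8 and Mpo under 4 on every array. S100a8 and S100a9 lay above all controls on every transgenic array. Ltf was at 7.65, 10.27 and 6.31 on the transgenic arrays, against 5.46, 6.55 and 5.96 among controls. Csf3r went the other way, at 3.32, 3.18 and 3.17 on the transgenic arrays, against 3.40, 4.46 and 3.52 among controls. Among 5 B and plasma cell markers, whose mean was 6.14 to 6.81 on transgenic and 4.94 to 5.39 on control arrays, the groups differed through Ighm, the IgM heavy chain. It was at 11.64, 9.93 and 9.73 on the transgenic arrays, against 3.36, 4.25 and 4.35 among controls (limma adjusted p 0.032). The groups overlapped for Jchain, at 11.91 to 12.47 on transgenic and 11.15 to 12.53 on control arrays, and Cd79a, Cd79b and Ms4a1 lay at or under 4.57 on every array. The mean of 6 fibroblast markers was 8.88 to 10.52 on transgenic and 10.47 to 10.55 on control arrays, and that of 6 endothelial markers 5.34 to 5.74 and 5.37 to 5.76.

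**Figure D5:**
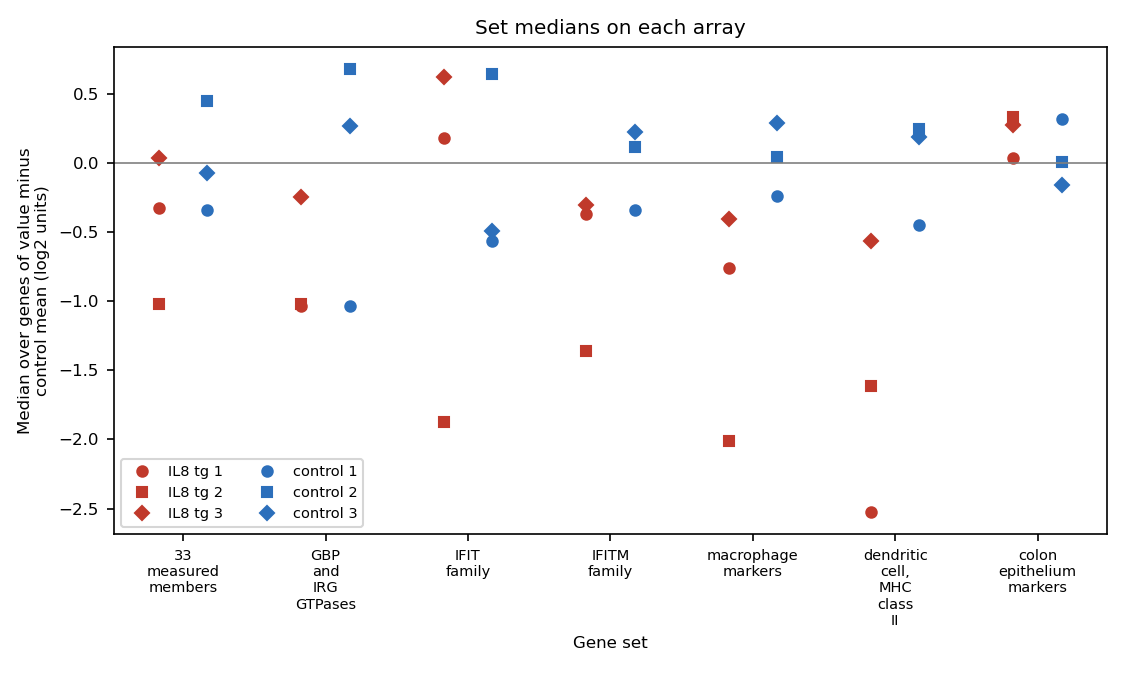
Median over genes of the value minus the control mean, in log2 units, on each IL8 transgenic (tg, red) and control (blue) array. The GTPases lie near -1.04 on transgenic array 1 and on control array 1, the IFIT genes at -1.87 on transgenic array 2, and the macrophage and MHC class II markers are lowest on transgenic arrays 2 and 1.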

How the data were processed

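Total RNA of 6 tumour samples was hybridised to 6 Affymetrix arrays, 3 per group. The deposited values are log2 expression per probe set, made by the authors with GCRMA per the submitters' processing notes, with version and genome build not given in the sources used here. Array medians were 3.31 to 3.36, on a log2 scale inferred from the range of the values, which were not normalized again. Probe sets at 4 or more on at least 3 arrays were tested (19310 of 45101, without 64 control probe sets), using the moderated fit of limma 3.58.1 (R 4.3.3) for transgenic minus control and adjusting p by Benjamini-Hochberg over all tested. The procedure was tested on simulated data. The number of arrays limits the precision. Each gene took its brightest kept 1-symbol probe set.

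Values on every array are given for genes that passed or whose groups did not overlap, and for the brightest gene and the one with the smallest p in each role group. Of the other pathway genes, those without overlap and the 4 with the smallest p were named. Other genes were named after values were seen. Members and lists were chosen with earlier results of these data known. Symbols came from the platform annotation, and promoter sequences and chromosomes from RefSeq (GRCm38.p6).

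Alternatives were other filters, normalizations, prior variance, array weights, a replicate block, values under 4 set to 4, a threshold of 0.1, the mean over probe sets, leaving out X- and Y-linked genes, and leaving out each array. The count of lower genes under them was added after seeing the data.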

Additional observations from a re-analysis of the deposited data

How the results depend on the processing

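With limma, 0 interferon-stimulated genes had an adjusted p under 0.05 in any of the 17 alternatives run, against 0 with all arrays (1 at an unadjusted p under 0.05), and the lowest adjusted p ran from 0.305 without transgenic array 3 to 0.999 without control array 2. The unadjusted count ran from 0 to 4. The median difference ran from -0.60 to -0.085 with 1 array left out and was -0.18 with array quality weights, against -0.41. The pathway median ran from -0.21 to 0.014 with 1 array left out, the last without control array 2, against -0.14. The number of probe sets with an adjusted p under 0.05 was 11, and 3 once genes named as X- or Y-linked were left out, which removes called probe sets. With array quality weights, Bst2 differed by 0.0038 and Ifi35 by 0.025, against -0.63 and -0.049. With 1 array left out, differences ran from -1.26 to 0.045 for Bst2, from -0.15 to 0.041 for Ifi35, from -0.93 to 0.077 for Ifit2, from -0.21 to 0.35 for Oas1a and from -0.35 to 0.54 for Oas2, changing sign; the cause was not tested. With 1 array left out in turn, 13 genes stayed below 0 and 2 above 0 in all 6 settings. With the replicate number as a block, 8 probe sets and 0 of the 33 genes passed, with a median difference of -0.41. The numbers share no stated source, and same-numbered arrays had correlations of deviations of -0.267, -0.277 and -0.051. There are 3 arrays per group, and Irf5, Mx1, Oas2 and Ddx60 lie near the filter level on some of them. So do Usp18, Rsad2 and Ddx58 on transgenic array 2, at 4.26, 4.14 and 4.45, and Irf7 on control array 3, at 4.27.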

Other observations

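Several other targets of interferon-gamma on the pathway list shared the low value of control array 1 seen for the GTPases, and they were picked out after their values were seen. Cxcl9, a chemokine for activated T cells, was at 3.03, 3.29 and 8.33 on transgenic arrays 1 to 3, against 5.70, 10.24 and 9.86 on control arrays 1 to 3. Transgenic arrays 1 and 2 were under the filter level of 4, and the difference of -3.72 ± 1.80 (SE) did not pass (limma adjusted p 0.806). Nlrc5, the activator of MHC class I genes, was at 5.07, 3.89 and 6.16 on the transgenic arrays and 4.47, 7.54 and 7.11 on the control arrays. The immunoproteasome subunit Psmb8 was at 9.24, 9.30 and 9.48 on the transgenic arrays, against 8.36, 10.04 and 10.26 among controls, and the peptide transporter subunit Tap1 at 7.36, 7.45 and 7.94 on the transgenic arrays, against 6.36, 8.54 and 8.44 among controls. For Psmb8 and Tap1 control array 1 was the lowest of the 6 arrays and the other controls were the highest.

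Dhx58, a relative of the sensors Ddx58 and Ifih1, was at 6.37, 3.75 and 5.55 on the transgenic arrays and 4.37, 5.35 and 4.67 on the control arrays. Like Ifit3 and Rsad2, it had transgenic arrays 1 and 3 above all controls and array 2 below all of them (limma adjusted p 0.898).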
